A study of Mus musculus with 6 samples.

Results

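Cell death and pyroptosis genes were followed in the enhancer predictions of cultured mouse oligodendrocyte precursor cells (OPCs). The group held 10 genes, taken by symbol, namely Casp1, Casp4 and Gsdmd for pyroptosis, Zbp1, Ripk3 and Mlkl for necroptosis, and Fas, Tnfsf10, Casp8 and Xaf1 for apoptosis driven from outside the cell. Every element-gene pair whose target gene carried one of these symbols in the GENCODE mouse annotation was taken from both deposited prediction tables. Of the 10 genes, 9 were listed as targets in at least 1 table, out of 32049 target genes in all, of which 19.6% were listed in the IFN-γ table only and 17.0% in the Ctr table only. Casp1, Gsdmd, Ripk3, Mlkl, Fas, Tnfsf10 and Casp8 were listed in both tables, Casp4 and Zbp1 were listed in the IFN-γ table only, 0 in the Ctr table only, and Xaf1 was listed in neither.

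Both groups were primary OPCs, given as strain C57BL/6j, with the genotype Sox10-Cre/RCE. In it the Sox10 promoter drives Cre and a reporter marks the oligodendrocyte lineage with EGFP. The authors describe a cross of Sox10:Cre mice on C57BL/6j with RCE:loxP mice of mixed C57BL/6xCD1 background. The cells came from brains of pups of both sexes at postnatal day 4 to 6, were isolated by the reporter or by the surface protein CD140a, and were kept in proliferation medium with bFGF and PDGF-AA. Ctr-OPCs received that medium alone, and IFN-γ-OPCs received it with 100 ng/mL IFN-γ, begun 24 hours after passaging. Each condition had 3 H3K27ac HiChIP libraries, but 1 table was deposited per condition, so no value below has a replicate error or a test, and the read depth behind the values is unknown.

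The inflammatory caspases Casp1 and Casp4 are activated by inflammasomes or by bacterial lipopolysaccharide and cut gasdermin D (Gsdmd), which then forms pores in the plasma membrane, and this lytic death is called pyroptosis. In necroptosis the nucleic acid sensor ZBP1 can engage the kinase RIPK3, which phosphorylates the membrane-rupturing protein MLKL. Extrinsic apoptosis starts at death receptors such as FAS, whose ligand family includes TRAIL (Tnfsf10), and passes through caspase 8, which also restrains necroptosis, while XAF1 is an interferon-inducible antagonist of the inhibitor of apoptosis XIAP. Interferons are known to raise transcription of many of these genes in other cells.

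Several measures describe a gene in the tables. An element's activity combines chromatin accessibility and H3K27 acetylation, and its contact with a gene was read from HiChIP maps in bins of 5 kb. Contacts below include the small constant that the model adds, except where a HiChIP contact is named, and coordinates are those of mm10 (GRCm38). The activity-by-contact (ABC) score is the product of activity and contact for one element as a fraction of the sum of that product over all elements of the gene, and a pair above 0.05 is called a connection here. That sum, recovered from each pair as the product divided by the score, is called the gene total, and it includes the gene's own promoter and all elements too weak to be listed. Neither table listed a pair with a promoter-class element or a pair nearer than 750 bp. The gene total can therefore also hold such elements, whatever their strength. The promoter quantile is the rank, from 0 to 1, of the activity of the gene's promoter. The tables begin at a score of 0.02 and at a quantile of 0.4. A gene missing from a table thus either lay under that quantile or had no pair of a listed kind at that score. These cannot be told apart. These are bulk values, in which more cells with an active element and more activity per cell cannot be told apart.

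Promoter quantiles were higher in IFN-γ-OPCs for 5 of the 7 genes listed in both tables, beside 49.5% of all genes, and by more than 0.1 for Casp1, Gsdmd and Tnfsf10, a step that 8.79% of the 20321 genes in both tables exceeded. Ripk3 and Casp8 had lower quantiles, Casp8 by more than 0.1, as did 8.45% of all genes. The median difference over the 7 genes was 0.0844, beside -0.000362 over all genes. With quantiles re-ranked among the genes listed in both tables, the median was 0.164, and 4 genes were higher and 2 lower by more than 0.1, the added ones being Mlkl and Ripk3. Zbp1 entered the IFN-γ table at a quantile of 0.970, the highest of the group in either table. Connections above 0.05 numbered 4 in Ctr-OPCs against 1 in IFN-γ-OPCs. They numbered 7 against 6 with the power-law score, which could be counted only over pairs with an ABC score of at least 0.02. All listed pairs numbered 22 against 21. The contrast in connections thus held for the HiChIP-based score at this cut-off and not for these alternatives.

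**Figure D1:**
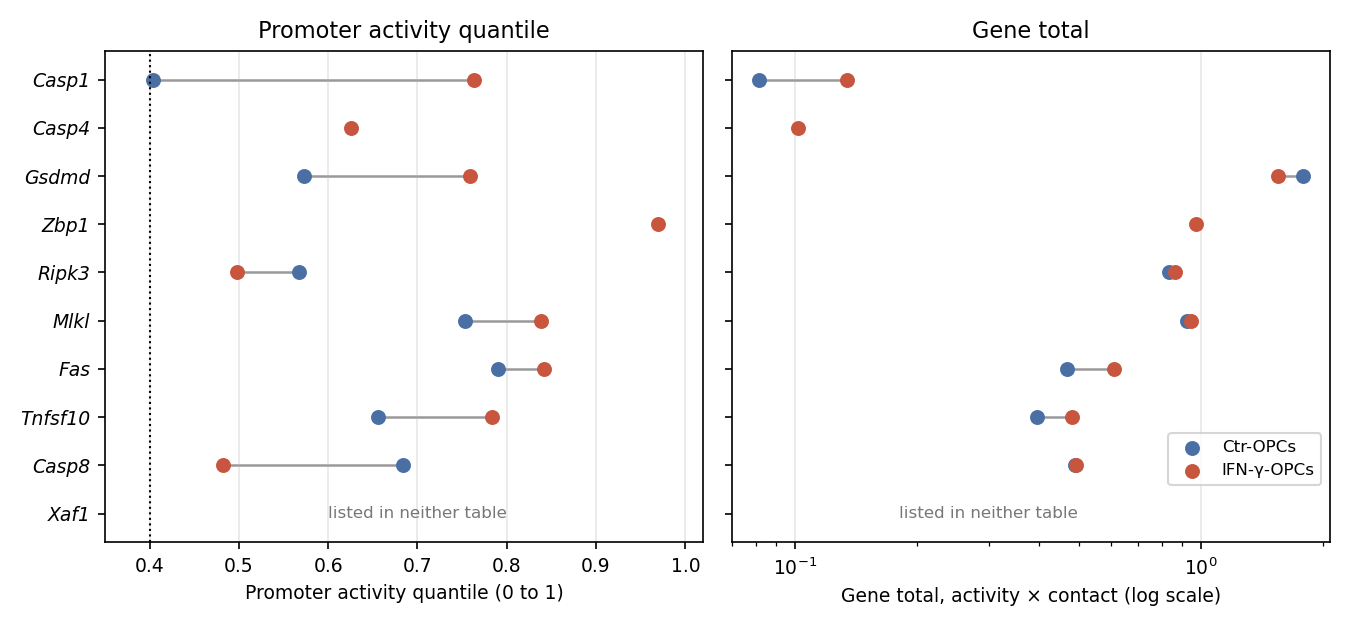
Promoter activity quantile (left, 0 to 1, with the dotted line at the lower limit of 0.4) and gene total (right, summed activity × contact, log scale) of the 10 genes, with 1 point per gene and table. Casp1 spans the widest interval on the left, from 0.404 to 0.763, and lies among the smallest totals on the right, while Casp8 and Ripk3 have their IFN-γ point at the lower quantile.

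Casp1, the caspase that matures interleukin-1β and cuts gasdermin D, had a promoter quantile of 0.404 in Ctr-OPCs against 0.763 in IFN-γ-OPCs. Of the 20321 genes in both tables, 2 had a larger increase. Its Ctr value lay just above the limit of 0.4, and among the 1122 genes in both tables that began under 0.45, 45.9% were higher by more than 0.1. The Casp1 gene total was 0.0814 in Ctr-OPCs against 0.134 in IFN-γ-OPCs, 1.65-fold higher (log2 ratio 0.72), and it was the only total in the group past 1.5-fold, which 0.615% of all genes exceeded. Such ratios were more frequent among small totals, since of the 93 genes with a Ctr total under 0.1, 24.7% were past 1.5-fold higher. The Casp1 total stood at the 0.388 percentile of all totals in the Ctr table and at the 1.05 percentile in the IFN-γ table.

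The elements listed with Casp1 were all different between conditions. In Ctr-OPCs it had 2 connections, an intergenic element 9.14 kb before its start (chr9:5289124-5289623, activity 0.230, score 0.0606) and an intergenic element 1110 kb beyond it (chr9:6407935-6408434, activity 0.979, score 0.0934), which was also listed with Pdgfd. A further Ctr element 2298 kb away, with an activity of 5.37 and a HiChIP contact of 0, was listed with 12 genes and had a score of 0.0393 for Casp1. Its activity was the highest of any member pair, beside a median of 0.866 over all Ctr elements. This pair is counted in the shares and distances below. In IFN-γ-OPCs no pair of Casp1 passed 0.05. Its listed elements there were in introns of its neighbours Casp4 (score 0.0290) and Casp12 (0.0312) and in an intron of Gria4 (0.0250). The Gria4 element overlapped one that the Ctr table listed with Casp12 and not with Casp1. Listed pairs made up 21.8% of the Casp1 total in Ctr-OPCs against 8.52% in IFN-γ-OPCs, and the part that no listed pair accounted for went from 0.0636 to 0.123. With the power-law score, which takes contact from distance alone, Casp1 had as many connections in both conditions among its listed pairs. Within those pairs its difference in connections depended on the HiChIP contact. The tables do not divide the unlisted part among the promoter, weak elements and the kinds of element that were never listed.

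Casp4, the mouse caspase-11 that senses cytosolic lipopolysaccharide, was listed in IFN-γ-OPCs only. Its quantile was 0.626 and its total 0.102. Its single pair was the only connection of the group in IFN-γ-OPCs, an element in its own intron 2.79 kb from its start (chr9:5311366-5311865, activity 0.341, contact 0.0166, score 0.0555). No Ctr element was listed at that position with any gene, and the next score below it in the IFN-γ table for the group was 0.0485. The same activity value was held by 15 elements of the IFN-γ table, and the score is this pair's share of a small gene total.

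The adjoining gene Casp12, a related caspase that was not one of the 10 genes, had the same kind of pattern. Its quantile was 0.508 in Ctr-OPCs against 0.817 in IFN-γ-OPCs, its total 0.0793 and 0.210 (log2 ratio 1.40), and it had 2 connections in Ctr-OPCs versus 1 in IFN-γ-OPCs. The Ctr elements of Casp12 lay 479 kb to 2345 kb away, whereas its IFN-γ connection lay in its own intron 2.13 kb from its start, with an activity of 0.334 and a score of 0.104. That element was the one also listed with Casp1. The 3 caspase genes lie side by side on chromosome 9 in the same orientation, so these values share elements and contact bins and are not independent of one another.

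**Figure D2:**
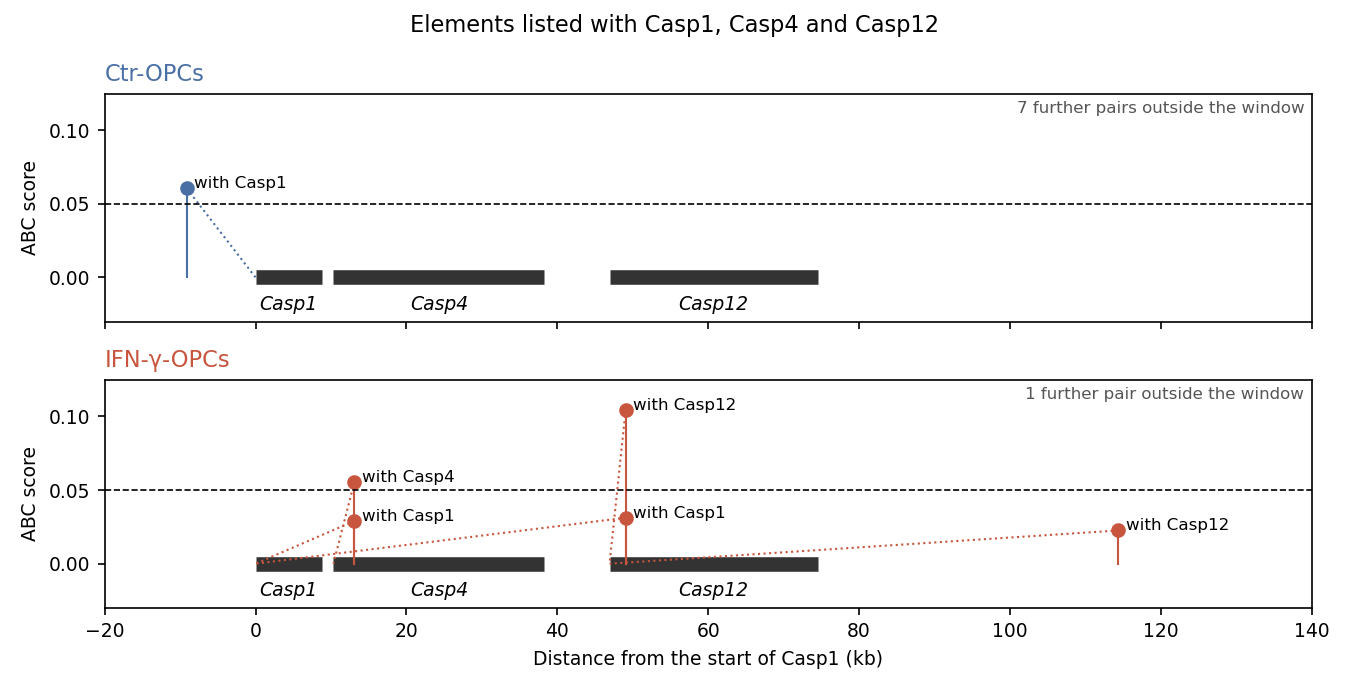
ABC score (vertical axis) of elements listed with Casp1, Casp4 or Casp12 against distance from the Casp1 start (kb), in Ctr-OPCs (top) and IFN-γ-OPCs (bottom); dark bars are the genes, dotted lines lead to the start of the target gene, and the dashed line marks 0.05. Within the window only 1 pair, 9.14 kb before Casp1, was listed in Ctr-OPCs, whereas IFN-γ-OPCs had elements inside Casp4 and Casp12 that were each listed with Casp1 as well.

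The sequences at this locus are shown because both conditions differ here in which elements were listed. The first is the 250 bases before the Casp1 start (chr9:5298267-5298516, plus strand, RefSeq promoter table, GRCm38.p6), and the second the central 300 bases of the element within Casp4 (chr9:5311466-5311765, plus strand). Capitals would mark a gamma-activated site (GAS, TTCNNNGAA) or the core of an interferon-stimulated response element (ISRE, GAAA followed by any 2 bases and GAAA), searched on both strands, and neither stretch held these letters.
Casp1 promoter: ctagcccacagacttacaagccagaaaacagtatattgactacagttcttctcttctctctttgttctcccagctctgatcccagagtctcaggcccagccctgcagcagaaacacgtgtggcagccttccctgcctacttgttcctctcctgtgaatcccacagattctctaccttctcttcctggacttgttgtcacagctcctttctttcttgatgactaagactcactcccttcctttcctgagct
Casp4 intron element: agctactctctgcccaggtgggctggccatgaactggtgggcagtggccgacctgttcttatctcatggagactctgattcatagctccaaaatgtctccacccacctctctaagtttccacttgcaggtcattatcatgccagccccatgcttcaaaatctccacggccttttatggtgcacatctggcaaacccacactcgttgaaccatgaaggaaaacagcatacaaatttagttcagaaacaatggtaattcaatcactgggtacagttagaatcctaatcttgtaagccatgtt

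Gsdmd, which encodes the pore-forming substrate of both caspases, had a higher promoter quantile in IFN-γ-OPCs, 0.759 against 0.573, with a lower total, 1.55 against 1.78 (log2 ratio -0.20). The median log2 ratio of totals over all genes was -0.07 with an SD of 0.19, so the Gsdmd total lay within 1 SD of that median. Its Ctr connection was a 2908-bp element over coding exons of Gsdmd itself, centred 3.32 kb from its start (chr15:75864193-75867100, activity 1.85, score 0.0611). No element of the IFN-γ table overlapped it. An intergenic element 5.18 kb before the gene was listed in both, with activities of 1.24 and 1.32 and scores of 0.0398 and 0.0416. An element 22.0 kb away in Mroh6 was also in both, with scores of 0.0243 and 0.0208. Hence 2 of the 3 listed Gsdmd elements kept their place and the exonic one was not listed again.

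Zbp1, the sensor of left-handed nucleic acids that starts necroptosis, was missing from the Ctr table and stood in the IFN-γ table with a quantile of 0.970 and a total of 0.975. Of the 6270 genes listed only in IFN-γ-OPCs, 5.49% had a quantile of 0.95 or more, against 7.02% of all 26591 genes of that table. Its single pair was an element in an intron of Pmepa1, 11.0 kb before the Zbp1 start (chr2:173229683-173230182, activity 1.43, contact 0.0209, score 0.0307), and Zbp1 was its only target. No Ctr element overlapped it, and within 50 kb of Zbp1 the Ctr table had 1 element, with an activity of 2.17, that was listed with Ctcflos and not with Zbp1. The listed pair made up 3.07% of the Zbp1 total, and the remaining part belonged to its promoter and unlisted elements together. Here the high promoter rank came with a single listed element of low score. The central 300 bases of that element (chr2:173229783-173230082, plus strand) are shown as the only distal sequence tied to Zbp1, and held neither motif.
Zbp1 element: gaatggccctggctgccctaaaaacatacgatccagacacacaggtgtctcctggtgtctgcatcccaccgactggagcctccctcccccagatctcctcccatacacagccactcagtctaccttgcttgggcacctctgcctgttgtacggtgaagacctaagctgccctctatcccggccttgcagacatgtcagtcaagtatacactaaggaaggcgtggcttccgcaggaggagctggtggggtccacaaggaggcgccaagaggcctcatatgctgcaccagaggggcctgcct

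The gene totals of the other necroptosis genes differed little. Ripk3, the kinase of the pathway, had a total of 0.835 in Ctr-OPCs against 0.866 in IFN-γ-OPCs (log2 ratio 0.05) and a quantile of 0.568 and 0.498. When contact was taken from distance alone, its log2 ratio was -0.12, so no direction is given for Ripk3. It had no connection in either table. Its best pair in both was an element in a coding exon of the neighbouring Adcy4, with scores of 0.0291 and 0.0297, and in IFN-γ-OPCs an intergenic element 1.39 kb from its start was added at 0.0262, both shared with Adcy4.

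Mlkl, the executor of necroptosis, had a total of 0.922 and 0.945 (log2 ratio 0.04) and a quantile of 0.754 and 0.838 in Ctr-OPCs and IFN-γ-OPCs. It too had no connection. In Ctr-OPCs both of its pairs were in introns of Fa2h, a gene for a fatty acid hydroxylase of myelin lipids. The one at 37.2 kb had an activity of 3.67 in Ctr-OPCs against 2.82 in IFN-γ-OPCs and scores of 0.0356 and 0.0229. The one at 15.6 kb had an activity of 2.69 and a score of 0.0350 in Ctr-OPCs, and at 1.71 in IFN-γ-OPCs it was listed with Fa2h only. In its place the IFN-γ table had an intergenic element 5.51 kb before Mlkl (activity 0.922, score 0.0292) with no other target. Of the Fa2h elements, one thus had a lower score for Mlkl and the other was no longer listed with it, and a nearer element was, with almost no difference in the Mlkl total.

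Fas, the death receptor for FAS ligand, had a total of 0.469 in Ctr-OPCs against 0.612 in IFN-γ-OPCs (log2 ratio 0.38), and 2.74% of all genes had a higher ratio. Its quantile was 0.791 and 0.841. The pairs of Fas were fully exchanged. In Ctr-OPCs both lay within Acta2, 47.4 kb and 46.5 kb away, with scores of 0.0253 and 0.0264, and both were shared with the interferon-inducible gene Ifit1 and with Ifit1bl2. In IFN-γ-OPCs it was listed with 2 elements in introns of Fas itself, at 1.31 kb (chr19:34291722-34292221, activity 0.423, score 0.0454) and at 22.1 kb (chr19:34312522-34313021, activity 0.635, score 0.0246), together with a pair of elements in an intron of Stambpl1, 95.8 kb and 94.8 kb away, with scores of 0.0208 and 0.0290. The one at 94.8 kb was in the Ctr table as well, with an activity of 1.97 against 1.95, but was listed there with Stambpl1, Acta2 and AC102285.1 and not with Fas. The Ctr table had no element inside Fas for any gene. Of the 2 Acta2 elements, the nearer had an activity of 0.833 in Ctr-OPCs against 1.47 in IFN-γ-OPCs, but in the latter it was listed with Acta2, Ankrd22 and AC102285.1 and not with Fas. Listed pairs were 5.17% of the Fas total in Ctr-OPCs against 11.99% in IFN-γ-OPCs, the largest gain of the group.

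The Fas promoter was the only one of the 8 member genes matched in the RefSeq table that held either motif within 250 bases of the start, as 7.02% of 32851 promoters did for GAS and 2.98% for the ISRE core. It is shown with the GAS letters, TTCTGGGAA, in capitals, 93 bases before the start (chr19:34290409-34290658, plus strand, GRCm38.p6). Beside it stand 300 bases of the intronic element at 22.1 kb (chr19:34312722-34313021, plus strand), which held a GAS, TTCCTAGAA. Among all IFN-γ elements, 15.2% held a GAS in their central 500 bases.
Fas promoter: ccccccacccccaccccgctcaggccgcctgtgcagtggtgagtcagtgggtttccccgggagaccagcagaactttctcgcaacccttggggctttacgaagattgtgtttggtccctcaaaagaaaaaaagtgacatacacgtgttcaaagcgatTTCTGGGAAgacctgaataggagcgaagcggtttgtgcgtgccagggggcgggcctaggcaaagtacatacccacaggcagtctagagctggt
Fas intron element: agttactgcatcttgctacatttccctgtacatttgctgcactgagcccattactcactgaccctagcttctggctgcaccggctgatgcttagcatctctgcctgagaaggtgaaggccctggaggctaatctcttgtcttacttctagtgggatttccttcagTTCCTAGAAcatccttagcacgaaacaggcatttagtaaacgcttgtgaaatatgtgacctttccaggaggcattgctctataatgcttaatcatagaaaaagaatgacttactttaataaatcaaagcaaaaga

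Tnfsf10, the gene of the death ligand TRAIL, had a total of 0.395 and 0.480 (log2 ratio 0.28) and a quantile of 0.656 and 0.784 in Ctr-OPCs and IFN-γ-OPCs. Both measures were thus higher with IFN-γ, yet the listed part of its total was smaller, 13.7% against 4.32%, and its pairs went from 5 to 2. The intergenic element 10.1 kb before it was listed in both tables, with activities of 0.618 and 0.502 and scores of 0.0297 and 0.0205. The best Ctr pair was an intergenic element 465 kb away (activity 3.90, score 0.0386) that was listed with 11 genes, and the best IFN-γ pair was an element 667 kb away in Pld1 (activity 3.36, score 0.0227) that was listed with 10 genes. None passed 0.05. Of its 5 Ctr pairs 4 lay over 100 kb away.

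Casp8, the initiator caspase of death receptors, was the one gene whose promoter quantile was much lower in IFN-γ-OPCs, 0.482 against 0.684, with an even total, 0.494 against 0.490 (log2 ratio 0.01). Only 1.58% of all genes had a larger decrease in quantile. Its Ctr connection lay 7.33 kb downstream of the start used in the tables (chr1:58802360-58803050, activity 0.585, score 0.0622). The RefSeq start of Casp8, at position 58802502, fell inside that element in both conditions, 7128 bp from the start used in the tables. The quantile was given with the tables' start, so its decrease need not hold at the RefSeq start. Whether the element is itself a promoter of Casp8 was not tested. In IFN-γ-OPCs the activity of this element was 0.536 against 0.585 (log2 ratio -0.13). Its contact was 0.0335 against 0.0521, and its score was 0.0364, below the cut-off. The best IFN-γ pair was an intergenic element 21.3 kb before the gene (chr1:58773446-58774687, activity 0.906, score 0.0485), shared with Als2cr12 and Tmem237, and no Ctr element was listed within 50 kb on that side.

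Shown next are the 250 bases before the RefSeq start of Casp8 (chr1:58802252-58802501, plus strand, GRCm38.p6), because the Ctr connection lay there, and 300 bases of the upstream element of the IFN-γ table (chr1:58773756-58774055, plus strand), with its ISRE core on the minus strand in capitals. The first held neither motif. An ISRE core was present in 8.60% of IFN-γ elements and in 5.41% of Ctr elements, and in 1 of the 20 member elements of the IFN-γ table and 1 of the 22 of the Ctr table. For GAS these counts were 4 of 20 and 5 of 22, beside 15.2% and 13.9% of all elements. A match describes letters only.
Casp8 RefSeq start: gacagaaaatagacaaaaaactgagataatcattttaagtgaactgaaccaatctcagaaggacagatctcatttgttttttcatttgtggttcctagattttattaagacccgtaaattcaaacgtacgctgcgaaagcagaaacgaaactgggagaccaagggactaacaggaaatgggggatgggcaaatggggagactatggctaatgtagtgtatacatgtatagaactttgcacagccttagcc
Casp8 upstream element: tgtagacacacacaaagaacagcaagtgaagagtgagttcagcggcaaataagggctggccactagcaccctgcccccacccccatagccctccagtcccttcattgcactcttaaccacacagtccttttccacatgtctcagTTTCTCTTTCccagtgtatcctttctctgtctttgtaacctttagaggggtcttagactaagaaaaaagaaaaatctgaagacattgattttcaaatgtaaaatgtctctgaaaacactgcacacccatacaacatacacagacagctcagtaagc

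Xaf1 was listed in neither table. Within 50 kb of its start, each table had 1 element, in Ctr-OPCs with an activity of 0.832 and listed with Gm23224, and in IFN-γ-OPCs with an activity of 0.437 and listed with Fbxo39. No level of Xaf1 can be read from these tables.

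Of the 10 genes, Casp4 had more connections, as did 14.9% of all target genes, Casp1, Gsdmd and Casp8 had fewer, as did 13.0%, and 6 had the same number. A gene absent from a table counted as 0 there, as did Casp4 and Zbp1 in Ctr-OPCs and Xaf1 in both conditions. The shares cover genes listed in at least 1 table, which Xaf1 was not. Over the genes listed in both tables, 0 had more connections and 3 had fewer. With the power-law score the numbers of Casp1 and Casp8 did not differ, Mlkl and Tnfsf10 had 1 fewer, and Fas had 1 more. Of the 9 listed genes 5 had 0 in both, beside 60.1% of all target genes. Listed pairs numbered 22 and 21, so the numbers above 0.05 differed and the numbers above 0.02 hardly did. The cut-off was thus passed by 4 of 22 Ctr pairs, beside 17.5% of all Ctr pairs, and by 1 of 21 IFN-γ pairs, beside 17.4% of all IFN-γ pairs. All 5 member connections had scores under 0.1.

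The listed pairs were nearer in IFN-γ-OPCs, with a median distance of 21.3 kb against 56.0 kb in Ctr-OPCs. Over all pairs the medians were 15.8 kb and 15.1 kb. Pairs over 100 kb numbered 9 of 22 in Ctr-OPCs versus 3 of 21 in IFN-γ-OPCs, where 25.2% and 25.1% of all pairs were that long. Of these 9, Casp1, Tnfsf10 and Casp8 held all. Elements inside the body of the target gene itself were found for Gsdmd and Casp8 in Ctr-OPCs and for Casp4, Fas and Casp8 in IFN-γ-OPCs.

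**Figure D3:**
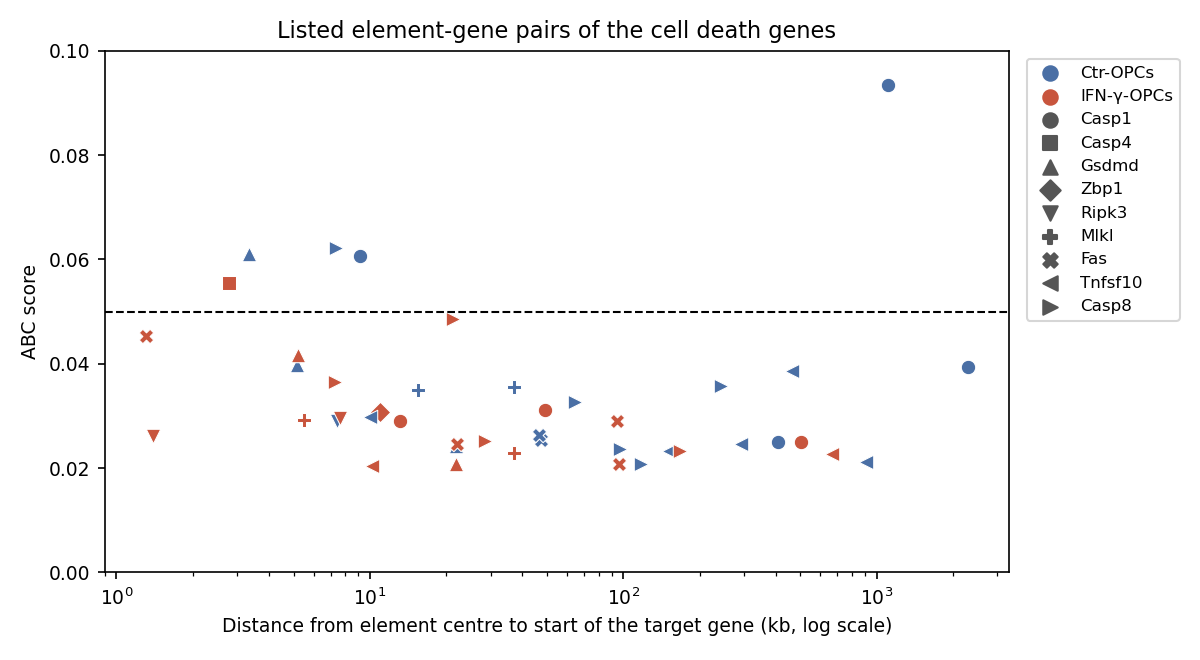
ABC score of each of the 22 Ctr-OPC and 21 IFN-γ-OPC pairs against the distance from the element centre to the start of its target gene (kb, log scale); marker shape gives the gene, colour the condition, and the dashed line the cut-off of 0.05. The points beyond 1 Mb are the 2 Ctr pairs of Casp1, and the IFN-γ points end at 667 kb.

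Gene totals were higher in IFN-γ-OPCs for 6 of the 7 genes in both tables, as they were for 35.7% of all genes. Only that of Gsdmd was lower, and with contact taken from distance alone that of Ripk3 was lower too. The median log2 ratio was 0.05, against -0.07 over all genes with an SD of 0.19, so that apart from Casp1, Fas and Tnfsf10 the totals lay within 1 SD of the median. The median of the 7 was 0.11 after division by table medians and 0.12 with contact taken from distance alone. None of the 7 was past 1.5-fold lower, as 0.118% of all genes were. With contact taken from distance alone, the log2 ratios of Casp1, Fas and Tnfsf10 were 1.03, 0.56 and 0.49. The order of these 3 genes was thus the same with and without the HiChIP contact.

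**Figure D4:**
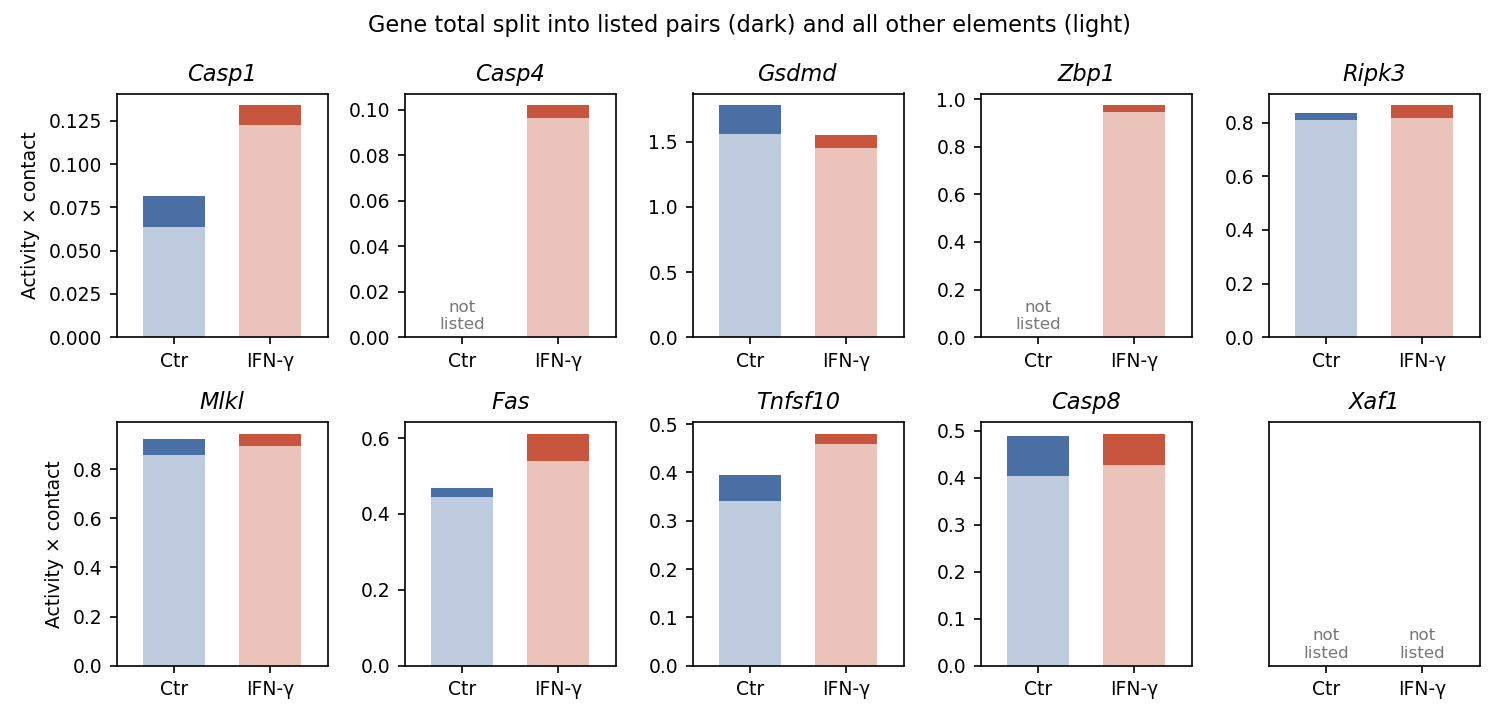
Gene total (activity × contact, 1 vertical scale per gene) in Ctr-OPCs and IFN-γ-OPCs, with the summed listed pairs in the dark part and all other input, the promoter included, in the light part. The dark part is 21.8% of the Casp1 total in Ctr-OPCs against 8.52% in IFN-γ-OPCs, and the dark part of Fas is the larger one in IFN-γ-OPCs, 11.99% against 5.17%.

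In Ctr-OPCs 13 of the 22 member elements overlapped an element of the IFN-γ table, and in IFN-γ-OPCs 10 of 20 overlapped a Ctr element, where 58.4% and 53.8% of all elements had a match. Pairs of the same gene and element listed in both tables numbered 6, of 22 Ctr pairs and 21 IFN-γ pairs, beside 44.8% and 41.8% of all pairs. Contact was lower in IFN-γ-OPCs in 5 of the 6, as in 44.0% of all matched pairs, and activity was higher in 2 of the 6, as in 40.1%. Which HiChIP libraries supplied the contacts of each table is not given in the sources used here, so these are differences between the tables. The median log2 ratio was -0.15 for activity and -0.22 for contact, beside -0.09 and 0.05 over all 29858 matched pairs, with SDs of 0.47 and 0.50. No member pair was past 2-fold in either measure, while 2.07% of all matched pairs were past it upwards and 2.71% downwards in activity, and 3.21% and 2.03% in contact. The lowest contact ratio, -0.64, was that of the Casp8 element at 7.33 kb.

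**Figure D5:**
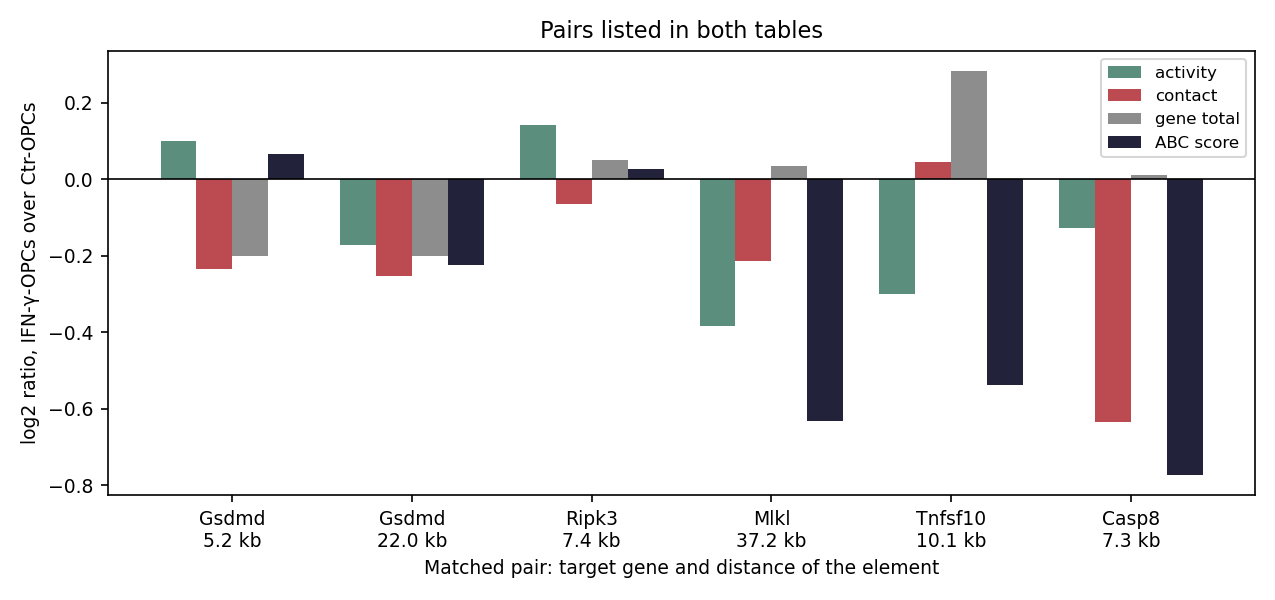
Log2 ratios, IFN-γ-OPCs over Ctr-OPCs, of activity, contact, gene total and ABC score for the 6 pairs listed in both tables, named by gene and distance of the element. The score equals activity times contact over total, and the contact bar is below 0 in all but the Tnfsf10 pair.

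Likeness between genes was measured by the number of elements they shared in the IFN-γ table. Ripk3 shared both of its elements with Adcy4, and Fas shared all 4 of its elements with Gm27818 and 2 each with Ankrd22 and Stambpl1. Casp1 shared 1 each with Casp12, Casp4, Gm5363 and Gria4, and Mlkl shared 1 with Fa2h and with Gm45712. Gsdmd shared 1 each with Gm9568, Mroh6, Naprt and Zc3h3, and Casp8 1 each with Als2cr12, C2cd6, Stradb, Tmem237 and Trak2. Tnfsf10 shared its element 667 kb away with 9 genes, Eif5a2 among them, and Zbp1 shared none. In Ctr-OPCs Casp8 shared an element 97.5 kb away with Cflar, its non-catalytic inhibitor, with an activity of 0.932, and in IFN-γ-OPCs no Casp8 pair was listed there.

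Of 49 other genes of the same pathways, 41 were listed in at least 1 table and 32 in both. Together they had 19 connections in Ctr-OPCs versus 23 in IFN-γ-OPCs, with 8 genes having more and 4 fewer, beside 14.9% and 13.0% of all target genes. Their median log2 ratio of totals was -0.03, and 14 of the 32 totals were higher, beside 35.7% of all genes in both tables. Among them Casp12 was the single gene past 1.5-fold and the single gene whose quantile was higher by more than 0.1, while the quantiles of Gsdme and Tnfrsf10b were lower by more than 0.1, at differences of -0.176 and -0.167. None of the 49 differed by 2 or more connections. The inflammasome genes Aim2, Nlrp3 and the adaptor Pycard had log2 ratios of totals of -0.01, -0.15 and 0.02, and Il1a, Il1b and Il18, the cytokine substrates and partners of inflammatory caspases, were listed in neither table. Of 7 necroptosis partners, 6 were listed in both tables and 1 had a higher total, the double-stranded RNA receptor Tlr3 (log2 ratio 0.33, and 0.18 with contact taken from distance alone). Of 7 death receptor genes and adaptors, 4 were listed in both and 3 had higher totals, with Cflar at 0.31, and at 0.19 from distance alone. Of 18 genes of mitochondrial apoptosis and caspases, 13 were in both and 5 were higher, the survival gene Bcl2 and the caspase Casp2 at 0.38 each, but at 0.25 and 0.01 with contact taken from distance alone. Of 5 inhibitors of apoptosis, 3 were in both and 2 were higher, Birc2 and Birc3 at 0.32 and 0.14, while Birc5 was at -0.20. With contact taken from distance alone the order of Birc2 and Birc3 turned, at 0.43 and 0.54, and Birc5 was at -0.18.

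The labelled cell type was checked by marker genes. All 10 OPC markers, among them Pdgfra, Cspg4, Sox10 and Olig2, were listed in both tables, at quantiles of 0.838 to 0.995 in Ctr-OPCs against 0.815 to 0.994 in IFN-γ-OPCs. Inflammatory caspases, Zbp1 and Gsdmd are also used by microglia. Of 10 microglia markers, 6 were listed in Ctr-OPCs versus 7 in IFN-γ-OPCs, at quantiles of 0.473 to 0.802 and 0.471 to 0.825, and Itgam and Ptprc were listed in neither table. Over the 5 microglia markers in both tables the median difference in quantile was 0.00669, and 1 of them, Csf1r, was higher by more than 0.1. Their median log2 ratio of totals was 0.05, the same to this precision as that of the member genes, and that of P2ry12 was 0.51, above those of Fas and Tnfsf10. Aif1 and Tmem119 were listed in the IFN-γ table only, as Casp4 and Zbp1 were, and Tyrobp in the Ctr table only. The microglia markers had 2 connections in Ctr-OPCs versus 0 in IFN-γ-OPCs. Of the 8 astrocyte markers, 6 were listed in each table, at quantiles of 0.590 to 0.941 in Ctr-OPCs against 0.451 to 0.934 in IFN-γ-OPCs. The astrocyte markers had 4 connections versus 6. None of their quantiles was higher by more than 0.1, those of Aldh1l1 and Gja1 were lower at differences of -0.142 and -0.138, and the median log2 ratio of totals was -0.09, with Slc1a3 at 0.36. All 6 neuron markers were listed in both tables, with 4 connections versus 7, a median log2 ratio of 0.01 and no quantile difference past 0.1. Their quantiles were 0.617 to 0.938 in Ctr-OPCs against 0.520 to 0.924 in IFN-γ-OPCs. The astrocyte and neuron ranges overlapped that of the OPC markers, so high quantiles did not set OPC markers apart. Full listing in both tables was shared with the neuron markers. Endothelial markers numbered 2 and 4 of 5, with 0 connections versus 1. The part of other cell types in the member values was not tested.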

How the data were processed

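H3K27ac HiChIP libraries of 3 Ctr-OPC and 3 IFN-γ-OPC cultures were processed by the authors with HiC-Pro on mm10, and elements were scored with the ABC model from ATAC-seq, H3K27ac CUT&RUN and HiChIP contact in 5-kb bins. The labels name 1 combined contact map, 1 full table was deposited per condition, and which libraries supplied the contacts of each table is not given in the sources used here. The deposited activity is a signal, with a scaling between conditions not given in the sources used here, the deposited contact and activity × contact columns are scores with no fixed range, the deposited ABC value is a fraction, the deposited power-law score uses contact expected from distance, and the promoter quantile is a rank. Target genes (Ensembl identifiers) were named by GENCODE M21. Gene totals, matched pairs (mutual best overlap of at least 1 bp) and background shares were computed in Python 3.11.15 with pandas 2.3.3, and sequences were read from GRCm38 with pysam 0.24.0. The calculations were tested on simulated data. No test between conditions was possible.

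All 10 genes were described, with every pair above 0.05 and otherwise the best pair per table, with the pathway genes past 1.5-fold in total or differing by 2 or more connections, and with the genes sharing most elements. Genes, pathway and marker lists were chosen with earlier results of these data known. Some pathway genes outside that rule were named after their values were seen. Promoter sequences were printed for Casp1, Fas and Casp8 only, and Gsdmd and Zbp1 had no match among the RefSeq promoters. Alternatives covered the score cut-off, contact from distance, scaling by medians, re-ranked quantiles and reciprocal overlap.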

Additional observations from a re-analysis of the deposited data

How the results depend on the processing

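No paired analysis was possible because 1 table was deposited per condition, with no values per library, and for the same reason no library could be left out. With all deposited pairs the 10 genes had 22 (Ctr-OPCs) and 21 (IFN-γ-OPCs) connections, with 4 genes having more and 4 fewer. With a cut-off of 0.1 they had 0 and 0, with 0 genes having more and 0 fewer. With the power-law score, over the same listed pairs, they had 7 and 6, with 2 genes having more and 3 fewer. Over genes listed in both tables the IFN-γ count was 0, and 0 genes had more and 3 fewer. With equal numbers of top connections (11648 per table) the counts stayed within 1.5 times those reported. The median log2 ratio of totals was 0.11 after division by table medians and 0.12 with contact from distance, where Ripk3 reversed to -0.12; the cause was not tested. Re-ranked quantiles gave a median difference of 0.164 and 2 genes lower by more than 0.1. The single matched pair above 0.05, that of Casp8, had log2 ratios of -0.13 in activity and -0.64 in contact, which became -0.018 and -0.68 after division by table medians, and the medians over all 6 matched pairs were -0.15 and -0.22. Among the values of single genes, that of Ripk3 was the 1 that reversed. Casp1 and Casp8 had a change in connections of 0 with the power-law score, Mlkl and Tnfsf10 -1 and Fas 1. The spread between cultures, the depth behind weak contacts and the scaling of activity between tables were not measurable here.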
